A study of Komagataella phaffii with 26 samples.

Results

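The 8 genes described here handle iron at the cell surface, in the vacuole and in its regulation in *Komagataella phaffii*, the methylotrophic yeast formerly called *Pichia pastoris*. They were taken by name from the gene table deposited with the study, 8 of 5040 gene models: *FET3* (C4R1S1), *FTR1* (C4QX98), C4R794, C4R354, C4R6L2, C4R4D0, *AFT1* (C4QY81) and *CTH1* (C4R7J6). The table describes C4R354 and C4R6L2 both as Fet4, a low-affinity Fe(II) transporter, C4R4D0 as the putative vacuolar Fe2+/Mn2+ transporter Ccc1, and C4R794 as the ferric reductase Fre3, so C4R794 is neither a permease nor a store nor a regulator. The entry named *AFT1* is described only as a hypothetical protein, and *CTH1* as a member of the CCCH zinc finger family. That table is limited to genes called changed from these same libraries in the original work, so that the number of these genes called changed below is not independent of how they were found.

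All libraries came from X-33, a wild-type strain. Cultures grew at 28 °C to an OD600 near 0.6 in YP with either glycerol or glucose at 20 g/L, and were then spun down and taken up in fresh medium buffered with 50 mM TAPS. Time zero was sampled at once after resuspension at pH 5.5, and stressed cultures were sampled 15, 30 and 60 min after resuspension at pH 8.0 on glycerol, pH 8.2 on glycerol or pH 8.0 on glucose. These 3 courses hold 10, 8 and 8 of the 26 libraries, with 2 per group and 4 for glycerol at pH 8.0 after 15 min. No culture kept at pH 5.5 was sampled later, and a change from time zero therefore also holds the time spent in fresh medium, which cannot be told apart from pH. By the study's methods each stressed culture gave the samples of all its later times, so the libraries come from fewer cultures than their number. Reads recovered from the RPKM values came to 16.3 to 20.4 M a library (median 18.6), of which 92.4 to 93.9% lay in gene models. The study itself reports a higher mean number of reads per sample. The reads were mapped to the assembly of strain GS115, not X-33, and the libraries do not keep strand, but none of the 8 gene models overlaps another.

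Yeasts take up iron in several ways. In the reductive high-affinity route a ferric reductase of the Fre family frees Fe2+ at the surface, the multicopper oxidase Fet3 oxidizes it, and the permease Ftr1 carries it across the plasma membrane. Fet4 imports Fe2+ with low affinity, and siderophore transporters bring in iron bound to chelators. Ccc1 moves iron into the vacuole, where it is stored. In *S. cerevisiae* the transcription factor Aft1 switches on uptake genes when iron is scarce, and the mRNA-binding proteins Cth1 and Cth2 lower transcripts of proteins that use iron. The roles given below are those known from *S. cerevisiae*.

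The 8 genes did not move as a group. C4R354 and *AFT1* rose at every time in all 3 courses, the vacuolar C4R4D0 fell by up to 13.9-fold, and the other FET4 gene, C4R6L2, fell at the early times. *FET3*, *FTR1* and C4R794 fell within 15 min on glycerol, while on glucose their changes by 15 min did not pass the test and their falls by 30 min did. *CTH1* rose at every time on glycerol, and on glucose it started higher and ended below its time zero. RPKM counts reads by gene length and by the mapped reads of each library, so that levels can be compared between genes but a change in total RNA per cell cannot be told apart, and fold changes were taken on log2(RPKM + 1), which understates the change of the lowest genes. A change is said to rise or fall where limma gave an adjusted p below 0.05 over the 5034 genes tested, which include all 8.

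**Figure D1:**
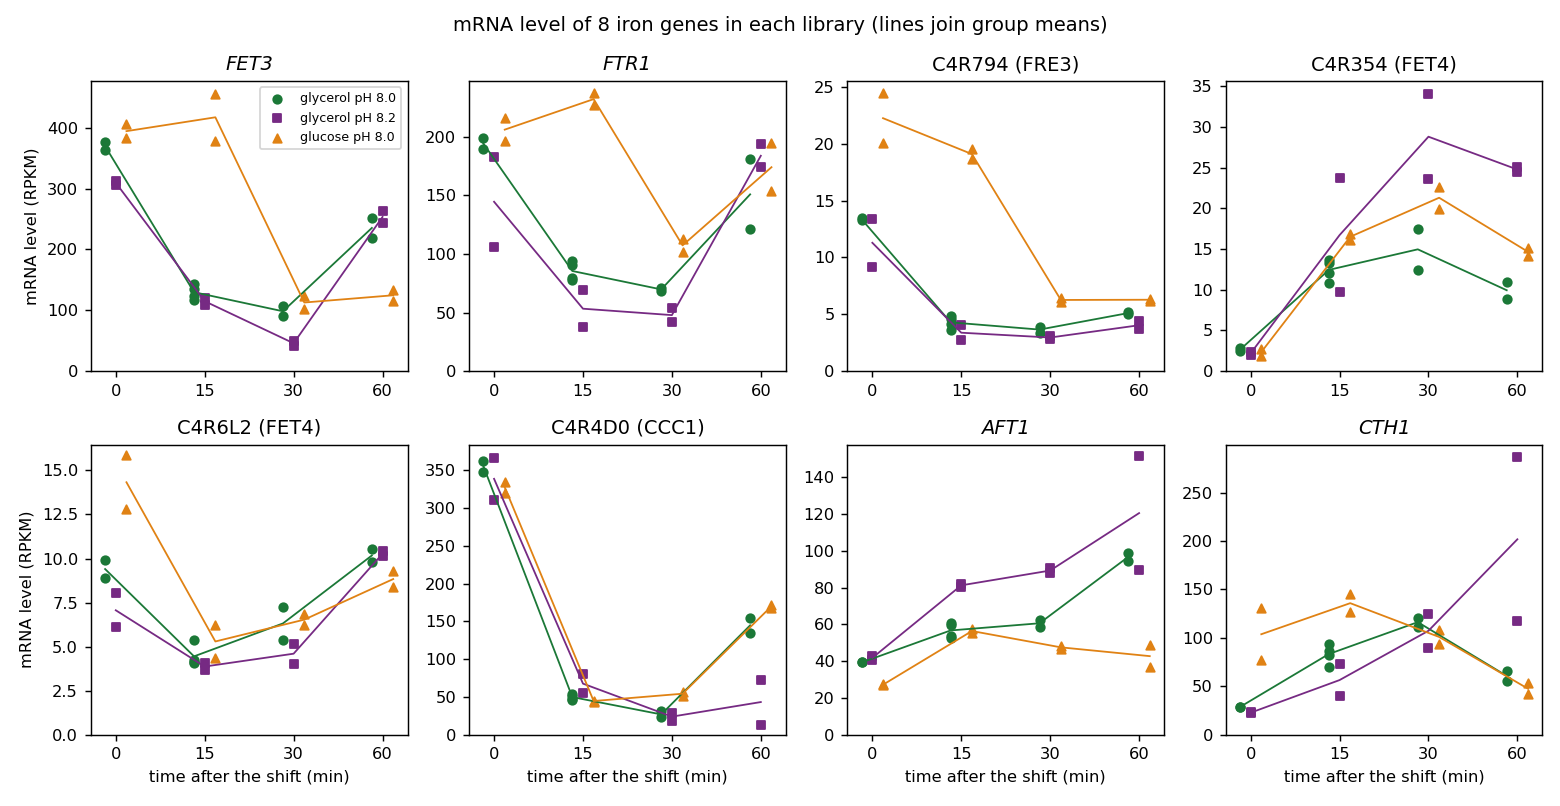
RPKM of the 8 genes (linear axes from 0, one panel per gene) against time after the shift, with the 4 times at equal spacing. Each point is 1 library, coloured by course, and lines join group means. *FET3*, *FTR1* and C4R794 on glucose stay high at 15 min, and C4R4D0 drops from 311 RPKM or more at time zero in every course.

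Counted over the genes, 3 rose and 5 fell on glycerol at pH 8.0 after 15 min, where 21% of all genes rose and 27.2% fell. After 30 min the counts were again 3 and 5, against 21.7 and 12.3% of all genes, and after 60 min 3 and 3, against 29.5 and 16.8%. At pH 8.2 they were 3 and 5 at 15 min (16.2 and 26.2% of all genes), 3 and 5 at 30 min (23.6 and 15.9%) and 4 and 2 at 60 min (36.8 and 21%). On glucose 2 rose and 2 fell at 15 min (14.1 and 20.4%), 2 and 5 at 30 min (18.6 and 14.6%) and 2 and 4 at 60 min (23.4 and 11.1%). Since the 8 come from a table of changed genes, nothing is read from how these shares compare. Of the 72 changes from time zero 61 passed the test, and 52 of these passed it in the same direction under each alternative processing that was tried. The 3 times of a course share their time zero libraries, so these counts are not independent of one another.

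*FET3*, the multicopper ferroxidase gene (chromosome 2, 1505101 to 1506990, + strand, GS115 assembly ASM2700v1), was among the more abundant of the 8 before stress. Its levels at time zero were 363 and 377 RPKM on glycerol in the pH 8.0 course, 313 and 306 in the pH 8.2 course, and 405 and 383 on glucose. After 15 min at pH 8.0 on glycerol the 4 libraries lay between 117 and 143 RPKM (median 130), and at pH 8.2 they were 121 and 109, whereas on glucose they were 378 and 456. The glycerol libraries thus all lay below their time zero, while on glucose those of 15 min and of time zero overlapped. The log2 fold change at 15 min was -1.51 (SE 0.11, adjusted p = 1.7e-09; 2.84-fold lower) on glycerol at pH 8.0, -1.42 (SE 0.13, adjusted p = 4e-08) at pH 8.2, and 0.08 (SE 0.13, adjusted p = 0.68) on glucose. The 95% interval on glucose ran from -0.19 to 0.34, which leaves out a fall of the size seen on glycerol.

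At 30 min *FET3* was low in all 3 courses. It stood at 90 and 107 RPKM on glycerol at pH 8.0, at 50.2 and 41.5 at pH 8.2, its lowest group of the 12, and at 102 and 124 on glucose, all below time zero. The fall was 6.66-fold at pH 8.2 (log2 -2.74, SE 0.13, adjusted p = 2.2e-12), the 12th strongest of 5034 genes, and 3.49-fold on glucose (log2 -1.80, SE 0.13). By 60 min the glycerol courses had returned part of the way, to 252 and 219 RPKM at pH 8.0 and to 243 and 264 at pH 8.2, where the difference from time zero did not pass the test (log2 -0.29, adjusted p = 0.057; -0.42 and 0.0055 with all 4 glycerol libraries as time zero). The rise from 30 to 60 min was 5.45-fold at pH 8.2 (log2 2.45, SE 0.13, adjusted p = 9.5e-11) and 2.38-fold at pH 8.0. On glucose *FET3* stayed at 116 and 134 RPKM, and 60 min did not differ from 30 min past the test (log2 0.15, SE 0.13, adjusted p = 0.46).

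*FTR1*, the permease gene (chromosome 1, 1485260 to 1486357, - strand), stood at a lower level than *FET3* in most groups. Time zero libraries held 190 and 199 RPKM, 183 and 106, and 216 and 196 in the same order of courses. After 15 min they held 77.4 to 94.4 (median 85.1) at pH 8.0 on glycerol, 69.0 and 37.6 at pH 8.2 and 238 and 227 on glucose, where both exceeded time zero. In the pH 8.2 course replicate 2 was the lower library at both times. The log2 fold changes at 15 min were -1.18 (SE 0.21, adjusted p = 0.00013), -1.43 (SE 0.24, adjusted p = 9.9e-05) and 0.17 (SE 0.24, adjusted p = 0.61). At 30 min *FTR1* had fallen in each course, to 71.2 and 68.3 RPKM, 53.7 and 42.0, and 102 and 113, and by 60 min none of the 3 courses differed from time zero past the test. Without replicate 1 of time zero, however, the pH 8.2 course lay 0.78 above it (adjusted p = 0.019). The pH 8.2 libraries of 60 min, at 174 and 194 RPKM, overlapped those of time zero.

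C4R794, the gene described as the reductase Fre3 (chromosome 4, 486364 to 488484, - strand), was far less abundant, at 13.4 and 13.3 RPKM at time zero of the pH 8.0 course, 13.4 and 9.18 in the pH 8.2 course, and 24.4 and 20.1 on glucose. After 15 min it lay between 3.58 and 4.82 (median 4.38) on glycerol at pH 8.0 and at 4.05 and 2.71 at pH 8.2, but at 18.6 and 19.5 on glucose. The glucose libraries were close below their time zero, and the glycerol ones at less than 5 RPKM throughout. It fell 2.72-fold on glycerol at pH 8.0 by 15 min (log2 -1.45, SE 0.14, adjusted p = 1.3e-07), and on glucose by 0.20 on the log2 scale (SE 0.16), which did not pass the test (adjusted p = 0.36). From 30 min on it was low in every course: 3.40 and 3.92 RPKM, 2.79 and 3.13, and 6.10 and 6.42 at 30 min. Unlike *FET3* on glycerol, it had not returned by 60 min, when it was still 2.35-fold lower than time zero at pH 8.0, 2.41-fold at pH 8.2 and 3.18-fold on glucose, and no course rose from 30 to 60 min past the test.

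The difference between carbon sources at 15 min was tested itself, as the response on glucose minus that on glycerol at pH 8.0. The glycerol libraries here are all a-coded and the glucose ones all S-coded, so carbon source cannot be told apart from library code. It was 1.58 for *FET3* (SE 0.17, adjusted p = 2.1e-05, the third highest of all genes tested), 1.35 for *FTR1* (SE 0.32, adjusted p = 0.017) and 1.24 for C4R794 (SE 0.22, adjusted p = 0.0026). These 3 of the 8 genes were past the test, against 2.09% of all genes in that direction, and none was past it in the other, where 3.91% of all genes were. The value of *FTR1* missed the threshold in 5 of 10 fits that left out 1 library (both libraries of time zero on glycerol, both of 15 min on glucose and replicate 2 of time zero on glucose; adjusted p 0.022 to 0.071 and value 1.28 to 1.42 over the 10), and with all 4 glycerol libraries as time zero it was 1.11 (adjusted p = 0.063). C4R354, C4R6L2 and C4R4D0, which had changed on both carbon sources by 15 min, had differences of 0.52, -0.35 and -0.04 that did not pass the test (95% intervals -0.20 to 1.24, -0.83 to 0.12 and -1.20 to 1.12), and those of *AFT1* and *CTH1* were 0.51 and -1.07 (adjusted p = 0.15 and 0.13). At 30 min the differences of *FET3*, *FTR1* and C4R794 were 0.10, 0.53 and -0.05, none past the test. At 60 min that of *FET3* was -1.0 (SE 0.18, adjusted p = 0.0032), with *FET3* 1.57-fold below time zero on glycerol and 3.15-fold below it on glucose.

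**Figure D2:**
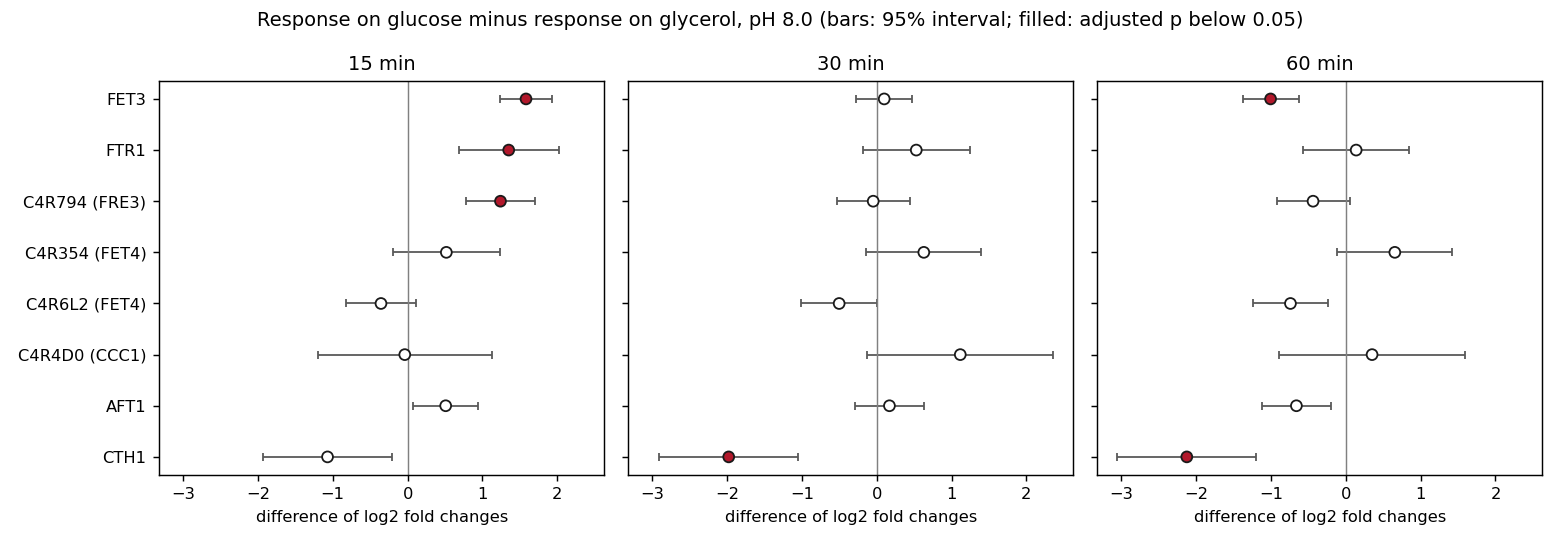
Response on glucose minus response on glycerol at pH 8.0 for each gene, as a difference of log2 fold changes of RPKM + 1, at 15, 30 and 60 min. Points are limma estimates over all 26 libraries, bars the 95% interval, and filled points had an adjusted p below 0.05. *FET3*, *FTR1* and C4R794 lie at 1.24 to 1.58 at 15 min, and *CTH1* lies at -1.98 and -2.12 at the later times.

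The proteins Fet3 and Ftr1 act as a pair, and the ratio of their transcripts was followed as a description. At time zero *FET3* stood at 1.71 to 2.89 times the RPKM of *FTR1*, the highest value being the pH 8.2 library whose *FTR1* was low. At 30 min the ratio was 0.93 and 0.99 at pH 8.2 and 1.00 and 1.10 on glucose, both groups below every library of time zero. At 60 min the ratio was 1.39 and 1.81 on glycerol at pH 8.0 and had gone back to 1.40 and 1.36 at pH 8.2. On glucose it was 0.76 and 0.69. The permease transcript exceeded that of the oxidase there, with *FTR1* at 153 and 195 RPKM.

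The 2 genes named for Fet4, the low-affinity importer of Fe2+, moved in opposite directions at 15 and 30 min, when C4R354 rose and C4R6L2 fell in all 3 courses. C4R354 lies near the end of chromosome 2 (2377352 to 2378917, - strand; gene 1328 of 1333 in order) and C4R6L2 near the start of chromosome 4 (17061 to 18581, - strand; gene 5 of 971). C4R354 was the least abundant of the 8 before stress, at 2.85 and 2.43 RPKM and at 2.37 and 2.01 in the glycerol courses and at 2.78 and 1.91 on glucose, or 50 to 81 reads a library. After 15 min it held 10.8 to 13.6 RPKM (median 12.7) at pH 8.0 on glycerol, 23.7 and 9.73 at pH 8.2 and 16.9 and 16.1 on glucose. All stressed libraries lay above all those of time zero, and at pH 8.2 the 2 libraries of 15 min were far apart. The rise at 15 min was 3.69-fold on glycerol at pH 8.0 (log2 1.88, SE 0.22, adjusted p = 1.5e-06), 5.11-fold at pH 8.2 (log2 2.35, SE 0.26) and 5.28-fold on glucose (log2 2.40, SE 0.26, adjusted p = 7.4e-07). It went on to 34.0 and 23.6 RPKM at pH 8.2 after 30 min, 9.22-fold above time zero (log2 3.20, SE 0.26, adjusted p = 9.8e-09), and at 60 min it was still 3.00-fold higher at pH 8.0, 8.09-fold at pH 8.2 and 4.72-fold on glucose.

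C4R6L2 started higher, at 9.92 and 8.89 RPKM, 6.11 and 8.02, and 12.8 and 15.9. After 15 min it held 4.06 to 5.38 (median 4.18) at pH 8.0 on glycerol, 4.07 and 3.68 at pH 8.2 and 6.23 and 4.36 on glucose, each group wholly below its time zero. The fall was 1.92-fold (log2 -0.94, SE 0.15, adjusted p = 3.7e-05), 1.64-fold (log2 -0.72, SE 0.17, adjusted p = 0.0024) and 2.45-fold (log2 -1.29, SE 0.17, adjusted p = 8.2e-06). It came back to 10.6 and 9.79 RPKM at pH 8.0 and to 10.4 and 10.1 at pH 8.2 by 60 min, the latter above time zero (log2 0.49, SE 0.17, adjusted p = 0.019), and on glucose to 8.36 and 9.31, still below it. The rise at pH 8.2 missed the threshold in 3 of 4 fits without 1 library (all but replicate 2 of time zero; adjusted p 0.013 to 0.20), and so did the fall at 30 min on glycerol at pH 8.0 (log2 -0.52; all but replicate 2 of 30 min; adjusted p 0.013 to 0.22). The fall at 30 min at pH 8.2 (-0.52) missed it without replicate 2 of time zero (adjusted p = 0.21) or of 30 min (0.18), and the fall at 60 min on glucose (-0.63) without replicate 2 of time zero (0.10) or replicate 1 of 60 min (0.063).

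As a share of the summed RPKM of both FET4 genes, C4R354 made up 10.7 to 28.0% at time zero and 47.5 to 86.8% in every stressed library. The highest shares, 86.8 and 85.4%, were those of pH 8.2 after 30 min, and the lowest under stress, 51.0 and 47.5%, those of glycerol at pH 8.0 after 60 min. The sum of both rose from a mean of 9.26 RPKM at time zero of the pH 8.2 course to 35.0 after 60 min, and from 16.7 to 27.8 on glucose after 30 min. How alike both genes are in sequence was not examined, so that any reads shared between them cannot be told apart.

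**Figure D3:**
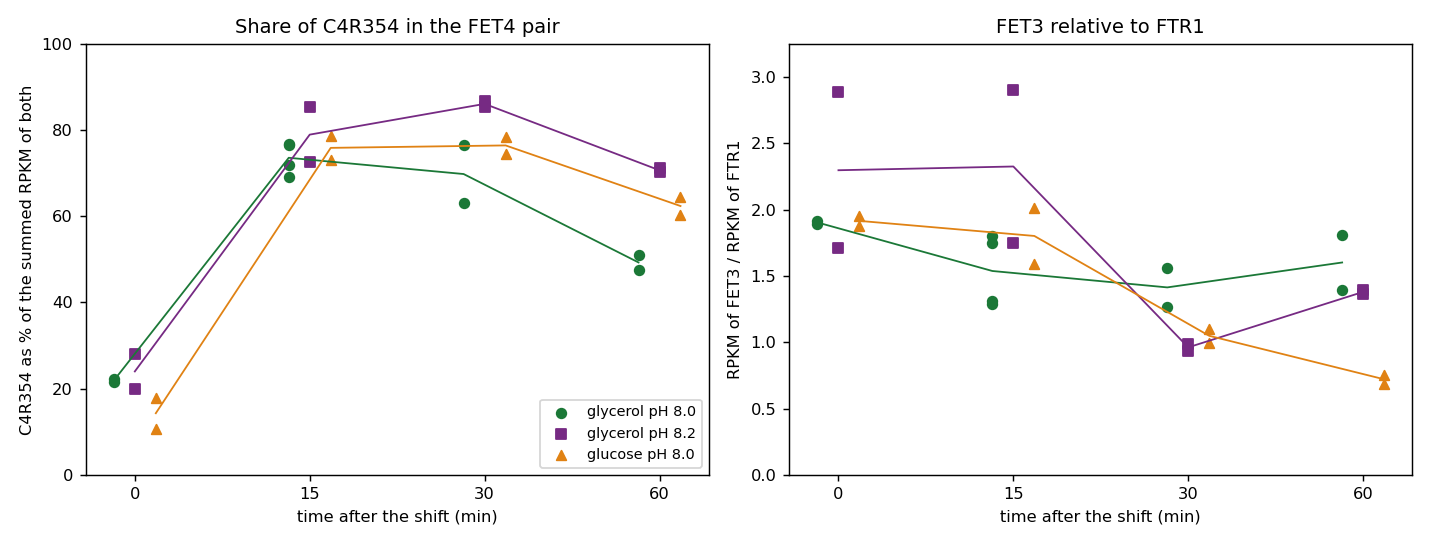
Left, C4R354 as a percent of the summed RPKM of both FET4 genes in each library. Right, RPKM of *FET3* divided by that of *FTR1*. Points are libraries, lines join group means, and times are at equal spacing. C4R354 lies at or under 28.0% at time zero and at or above 47.5% in all stressed libraries.

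C4R4D0, the gene of the vacuolar iron importer Ccc1 (chromosome 3, 728614 to 729522, - strand), showed the deepest falls of the 8. It was as abundant as *FET3* at time zero, with 363 and 348 RPKM, 311 and 366, and 335 and 320. After 15 min it held 46.5 to 53.6 RPKM (median 49.8) at pH 8.0 on glycerol, 54.7 and 80.7 at pH 8.2 and 45.3 and 44.0 on glucose. On both carbon sources each group of 15 min lay far below its time zero, by 7.01-fold (log2 -2.81, SE 0.36, adjusted p = 3.9e-06), 5.02-fold (log2 -2.33, SE 0.42, adjusted p = 0.0002) and 7.20-fold (log2 -2.85, SE 0.42, adjusted p = 3e-05). At 30 min it had 22.9 and 31.0 RPKM, 18.6 and 29.4, and 57.0 and 51.8. The falls of 12.9-fold at pH 8.0 and 13.9-fold at pH 8.2 on glycerol (log2 -3.69 and -3.79, SE 0.42) were each the fourth deepest of all genes tested in their comparison.

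By 60 min C4R4D0 was back to 135 and 155 RPKM on glycerol at pH 8.0 and to 172 and 168 on glucose, a rise over 30 min of 5.26-fold (log2 2.40, SE 0.42, adjusted p = 0.00042) and 3.10-fold (log2 1.63, SE 0.42, adjusted p = 0.011). The call on glucose missed the threshold in 3 of 4 fits without 1 library (all but replicate 1 of 30 min; adjusted p 0.046 to 0.081). Against time zero the 60 min level on glycerol was 2.45-fold lower (log2 -1.29, SE 0.42, adjusted p = 0.017), and leaving out any 1 of the 4 libraries gave an adjusted p of 0.051 to 0.076. On glucose the 60 min level was lower than time zero by 0.94 (SE 0.42), the only 1 of its 9 changes that did not pass the test (adjusted p = 0.090), though it passed with the glucose course fitted alone (adjusted p = 3.7e-06). In all 9 comparisons its libraries lay apart from those of time zero. The SE comes from 1 estimate of spread shared by all groups, including the pH 8.2 libraries of 60 min. At pH 8.2 the 2 libraries of 60 min disagreed, with 73.1 RPKM in replicate 1 and 13.6 in replicate 2. Both lay below time zero (log2 -3.37, SE 0.42, adjusted p = 2.1e-06), but without replicate 1 the level was lower than at 30 min by 0.75 on the log2 scale (adjusted p = 0.0099), and without replicate 2 it was 1.60 higher (adjusted p = 3.7e-05), so that no direction from 30 to 60 min can be given.

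*AFT1*, named for the activator of the iron regulon (chromosome 1, 2073479 to 2074570, - strand), rose in all 9 comparisons with time zero. Its time zero libraries were close to each other, at 39.3 and 39.4 RPKM, 40.9 and 42.8, and 27.1 and 27.4. After 15 min they held 52.5 to 60.8 (median 56.9) at pH 8.0 on glycerol, 82.2 and 80.4 at pH 8.2 and 57.6 and 55.3 on glucose, above time zero without exception. These were rises of 1.43-fold (log2 0.51, SE 0.13, adjusted p = 0.0039), 1.92-fold (log2 0.94, SE 0.16, adjusted p = 8.3e-05) and 2.03-fold (log2 1.02, SE 0.16, adjusted p = 4.2e-05). On glycerol at pH 8.0 the level was highest at 60 min, with 98.9 and 94.8 RPKM. At pH 8.2 the 2 libraries of 60 min disagreed, with 152 RPKM in replicate 1 and 89.6 in replicate 2. Replicate 2 lay between the libraries of 30 min (87.9 and 90.8), so the higher mean at 60 min rests on 1 library. On glucose the level was highest at 15 min and fell to 48.8 and 36.8 by 60 min (log2 -0.41 against 15 min, SE 0.16, adjusted p = 0.041). This call was lost in each fit without 1 library but that without replicate 1 of 60 min, with values from -0.60 to -0.21. The rise at 60 min on glucose (0.62) missed the threshold without replicate 1 of that time (adjusted p = 0.099). The difference between carbon sources in the change from time zero was -0.66 at 60 min (SE 0.22) and did not pass the test (adjusted p = 0.082).

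*CTH1*, named for an mRNA-binding zinc finger protein (chromosome 4, 675506 to 676240, + strand), had the largest difference between carbon sources of the 8 at 30 and 60 min. It began at 28.9 and 28.5 RPKM and at 23.6 and 22 in the glycerol courses, and at 77.1 and 130 on glucose. Glucose libraries lay above all glycerol libraries at time zero, 3.82-fold (log2 1.93, SE 0.27, adjusted p = 5.9e-05). After 15 min *CTH1* held 70.3 to 94.2 RPKM (median 84.5) at pH 8.0 on glycerol, 73.2 and 39.7 at pH 8.2 and 145 and 127 on glucose. It rose 2.83-fold at pH 8.0 (log2 1.50, SE 0.27, adjusted p = 0.00016) and 2.31-fold at pH 8.2 (log2 1.21, SE 0.31, adjusted p = 0.0045), while on glucose the 2 groups overlapped (log2 0.43, SE 0.31, adjusted p = 0.31). At 30 min the courses met, at 112 and 121 RPKM, 125 and 90, and 109 and 93.3, the last still overlapping its time zero.

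At 60 min the levels of *CTH1* were apart again. They were 65.6 and 55.9 RPKM on glycerol at pH 8.0, 117 and 286 at pH 8.2, where the 2 libraries differed by far, and 52.9 and 42.1 on glucose, below time zero. The changes were 1.05 (SE 0.31, adjusted p = 0.0099), 2.96 (SE 0.31, adjusted p = 2.9e-07) and -1.07 (SE 0.31, adjusted p = 0.012). The response on glucose minus that on glycerol at pH 8.0 was -1.98 at 30 min (SE 0.44, adjusted p = 0.028), for 1 of the 8 genes against 1.07% of all genes in that direction (0.219% in the other), and -2.12 at 60 min (SE 0.44, adjusted p = 0.0083), where *FET3* and *CTH1* were the 2 past the test against 3.04% of all genes, with 2.86% of all genes past it in the other direction. The value at 30 min missed the threshold in 7 of 8 fits without 1 library (all but replicate 1 of time zero on glucose; adjusted p 0.021 to 0.17), and the value at 60 min in 1 of 8 (replicate 2 of time zero on glucose, which leaves -1.75, adjusted p = 0.062). The fall on glucose was lost without that same library (-0.70, adjusted p = 0.20) or replicate 2 of 60 min (-0.91, 0.099), the rise at 60 min at pH 8.0 without replicate 1 of 60 min (0.94, 0.062), and the rise at 15 min at pH 8.2 without replicate 1 of 15 min (0.78, 0.085).

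**Figure D4:**
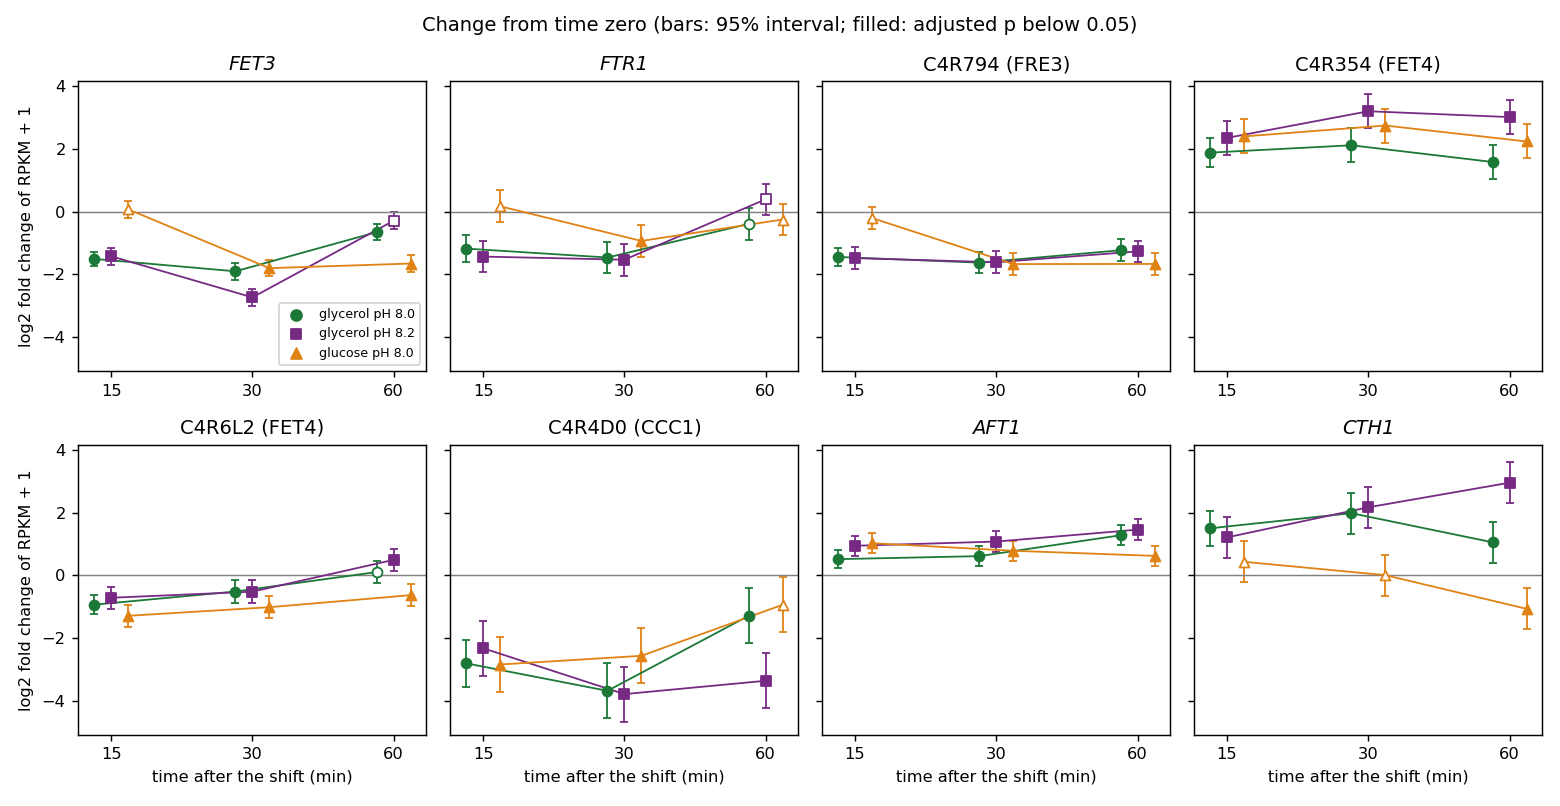
Log2 fold change of RPKM + 1 against time zero of the same course for the 8 genes at 15, 30 and 60 min (equal spacing). Points are limma estimates coloured by course, bars the 95% interval, and open points had an adjusted p of 0.05 or more. C4R354 and *AFT1* lie above 0 at every point and C4R4D0 below 0. *CTH1* on glucose lies below both glycerol courses, with bars that overlap theirs at 15 min but not at 30 and 60 min.

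At time zero the 2 glycerol courses, both sampled at pH 5.5, were compared as a check of the baselines. None of the 8 genes differed between them in the limma fit (lowest adjusted p = 0.13), while 10.0% of all genes were higher and 6.50% lower in the pH 8.2 course. The 1 gene at an unadjusted p below 0.05 was C4R6L2, lower in the pH 8.2 course (-0.38, 95% interval -0.73 to -0.02). Between glucose and glycerol at time zero 3 of the 8 were higher, against 9.44% of all genes, and 1 lower, against 12.5%. Beside *CTH1*, C4R794 was 1.76-fold higher on glucose (log2 0.81, SE 0.14, adjusted p = 0.00056) and C4R6L2 1.67-fold higher (log2 0.74, SE 0.15, adjusted p = 0.0016), while *AFT1* was 1.47-fold lower (log2 -0.56, SE 0.13, adjusted p = 0.0063). Without replicate 2 on glucose the count was 2, with C4R6L2 (0.60) and *AFT1* (-0.57) both at an adjusted p of 0.068. *FET3* and *FTR1* were 1.17- and 1.25-fold higher on glucose, with 95% intervals of -0.01 to 0.45 and -0.11 to 0.76 on the log2 scale that reach 0.

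The more alkaline medium was compared with pH 8.0 on glycerol as the difference of both responses. Here too the courses differ in library code as well as in pH. None of the 8 genes passed the test at 15, 30 or 60 min, and neither did any of the 5034 genes (0% higher and 0% lower). At an unadjusted p below 0.05 there were 0, 3 and 4 of the 8 at the 3 times. How many of all genes reached that level was not counted, so nothing is read from these counts. The 3 at 30 min were *FET3* (-0.83, 95% interval -1.21 to -0.46), C4R354 (1.09, 0.32 to 1.85) and *AFT1* (0.46, 0.01 to 0.92). At 60 min they were C4R354 (1.43, 0.66 to 2.20), *FTR1* (0.78, 0.07 to 1.50), C4R4D0 (-2.07, -3.31 to -0.83) and *CTH1* (1.90, 0.98 to 2.83), the last pair with the 2 libraries of 60 min far apart. Without replicate 1 of 30 min at pH 8.2 *FET3* passed (-0.97, adjusted p = 0.035), and without replicate 1 of 60 min at pH 8.2 C4R354, C4R4D0 and *CTH1* did (1.45, -3.25 and 2.54). When time zero was taken as all 4 glycerol libraries together, the difference became that between the pH 8.2 and pH 8.0 libraries of each time. It then also held any difference between the baselines, where 10.0% of all genes were higher and 6.50% lower in the pH 8.2 course. So taken, 3 genes passed at 30 min, *FET3* at -1.09 (adjusted p = 0.00075), C4R354 at 0.90 (adjusted p = 0.041) and *AFT1* at 0.55 (adjusted p = 0.037). At 60 min 3 passed, C4R354 at 1.24 (adjusted p = 0.0082), C4R4D0 at -2.15 (adjusted p = 0.0053) and *CTH1* at 1.58 (adjusted p = 0.0065). The counts over all genes also rose from 0 with this setting and are given below.

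From 30 to 60 min under stress 5 of the 8 genes rose on glycerol at pH 8.0, against 13.7% of all genes, and 1 fell, against 12.1%. At pH 8.2 it was 5 that rose, against 27.8%, and 0 that fell, against 21.9% (0 also at an unadjusted p below 0.05). On glucose only 1 rose (C4R4D0), against 12.1%, and 1 fell (*CTH1*), against 6.63%. Leaving out 1 library moved these counts by more than 1.5 times: 3 genes passed on glycerol at pH 8.0 without replicate 1 of 60 min, 3 at pH 8.2 without replicate 2 of 30 min, and 0 or 1 on glucose without any 1 of its libraries. With all libraries, the returns of *FET3*, C4R6L2 and *FTR1* on glycerol were among those past the test, that of *FTR1* by 1.07 at pH 8.0 and 1.93 at pH 8.2.

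From 15 to 60 min 5 of the 8 rose on glycerol at pH 8.0, against 40.0% of all genes, and 0 fell, against 20.9% (0 also at an unadjusted p below 0.05). At pH 8.2 6 rose, against 43.8%, and 1 fell, against 21.1%, the faller being C4R4D0 (log2 -1.04, SE 0.42, adjusted p = 0.036), which lay 0.14 above 15 min without replicate 2 of 60 min. On glucose 2 rose, against 32.8%, and 4 fell, against 11.3%. The 2 that rose were C4R4D0 (3.75-fold) and C4R6L2 (1.58-fold, lost without replicate 2 of 15 min at an adjusted p of 0.095), both of which had fallen by 15 min. *FET3* (log2 -1.73, SE 0.13) and C4R794 (-1.46, SE 0.16) fell on glucose over this span. On glycerol *FET3* rose by 0.85 at pH 8.0 and 1.13 at pH 8.2, while C4R794, at 0.21 and 0.22, did not pass the test. *CTH1* fell on glucose by 1.50 (SE 0.31) and rose at pH 8.2 by 1.75 (SE 0.31).

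The genes of the whole table whose pattern was most like that of a member were found by Pearson's r over the 12 group means of log2(RPKM + 1), given as a description. The 12 means share the time zero groups and the 3 courses. For C4R4D0 they were *GLN3* (r = 0.97), the activator of nitrogen catabolite genes, *SDH2* (0.95), the iron-sulfur subunit of succinate dehydrogenase, and C4R8F5 (0.94). For C4R794 they were *PFK2* (0.97), a subunit of phosphofructokinase, *PDC1* (0.96), a pyruvate decarboxylase, and *URA1* (0.95). For C4R6L2 the dicarboxylic amino acid permease gene *DIP5* came first (0.98), before C4R8G0 (0.97) and C4QY06 (0.96), and for C4R354 the uncharacterized C4R979 (0.96), followed by C4R7F2 (0.96), a vacuolar transporter chaperone, and the putative ABC transporter C4QZC3 (0.96). For *AFT1* they were C4QZZ4 and PAS_chr1-1_0140 (both 0.91) and *PCD1* (0.91), a peroxisomal pyrophosphatase. The genes closest to *FET3* were the uncharacterized C4QWT7 (0.91), C4R358 (0.89) and C4R098 (0.88), and those closest to *FTR1* were PAS_chr4_0154 (0.93), PAS_chr2-2_0481 (0.89) and C4R7C4 (0.87). *CTH1* had the weakest likeness to its nearest genes, C4R827, PAS_chr4_0197 and C4R0E8 (each 0.81). *FET3* and *FTR1* had r = 0.86 with each other, *FET3* and C4R794 0.82, and C4R354 and C4R4D0 -0.90.

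Other genes of iron metabolism were set beside the 8 as 5 lists of 26 genes, which were drawn from the same deposited table of changed genes and so are not an independent sample. Of 7 siderophore transporter and ferric reductase genes, 5 rose on glycerol at pH 8.0 after 15 min, 7 after 30 min and 7 after 60 min, against 21, 21.7 and 29.5% of all genes. At pH 8.2 it was 3, 5 and 7 (16.2, 23.6 and 36.8% of all genes) and on glucose 5, 5 and 5 (14.1, 18.6 and 23.4%), with none that fell in any of the 9 comparisons with time zero. The siderophore transporter gene C4R573 rose by 3.91 to 5.33 on the log2 scale in the 9 comparisons, the reductase gene *FRE2* (C4QZH4) by 1.52 to 2.89, and the transporter gene *ARN1* (C4R468) 5.88-fold at pH 8.2 after 60 min (SE 0.24 on the log2 scale, adjusted p = 5.3e-08). *ARN1* also rose at pH 8.0 after 30 and 60 min (0.84 and 1.46), while its 15 min values on glycerol (0.24 and 0.11), that of pH 8.2 after 30 min (0.32) and the 3 on glucose (0.12 to 0.53) did not pass the test. C4R794 was the one reductase gene among those examined that fell. The median change of the 7 after 30 min on glycerol at pH 8.0 was 1.78, against 0.06 for all genes tested and -0.99 for the 8.

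In *S. cerevisiae* Fet3 needs copper, and both copper supply genes, *CTR1* (C4R733; log2 1.45 at pH 8.0 after 30 min) and *CCC2* (C4QZR7; 0.46), rose on glycerol at 30 and 60 min. On glucose *CTR1* rose at 30 min (0.99, SE 0.26, adjusted p = 0.0069) and *CCC2* passed the test at no time. Of 3 further regulators *YAP5* (C4QVF5), named for an iron-responsive factor of *S. cerevisiae*, rose by 2.38 at pH 8.2 after 60 min, *GRX3* (C4QZI7), a monothiol glutaredoxin, fell by 0.98, and *FRA1* (C4R1D9), whose product in *S. cerevisiae* holds back the iron regulon, did not pass the test (-0.15, SE 0.23) but fell on glucose after 60 min (-1.38, SE 0.23, adjusted p = 0.00011). In the other comparisons with time zero the changes were smaller, 0.56 to 1.70 for *YAP5* and -0.42 to -0.12 for *GRX3*. *YAP5* did not pass the test at pH 8.2 after 15 min, nor did *GRX3* on glucose after 60 min. Of 3 iron-sulfur assembly genes 2 fell on glycerol at pH 8.2 after 60 min (21% of all genes), *ISA1* (C4QW49) by 1.13 and *NFU1* (C4QXG5) by 1.05. At 15 and 30 min there, 1 and 2 fell (26.2 and 15.9% of all genes). At pH 8.0 on glycerol 2, 2 and 0 fell at 15, 30 and 60 min (27.2, 12.3 and 16.8%). On glucose 2, 2 and 1 fell (20.4, 14.6 and 11.1%).

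Of 11 genes whose proteins use iron, 7 fell and 2 rose on glycerol at pH 8.0 after 15 min, where 27.2% of all genes fell and 21% rose. At pH 8.2 after 60 min 8 fell and 3 rose, against 21 and 36.8% of all genes. *SDH2* (C4R6J2) fell by 3.11, *ACO1* (C4QV90), which encodes aconitase, by 2.60, and *LEU1* (C4R0G5), which encodes isopropylmalate isomerase, by 2.53 at pH 8.2 after 60 min. The median of the 11 there was -1.28, against 0.13 for all genes tested. On glucose after 15 min, when *FET3*, *FTR1* and C4R794 had not fallen past the test, 7 of these 11 had, against 20.4% of all genes: *SDH2* by 2.14, *LEU1* by 1.89 and *ACO1* by 1.09. By 60 min on glucose 4 fell and 1 rose, against 11.1 and 23.4% of all genes, with a median of -0.12. On glycerol at pH 8.0 after 60 min 6 fell and 2 rose, against 16.8 and 29.5%, with a median of -0.48.

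**Figure D5:**
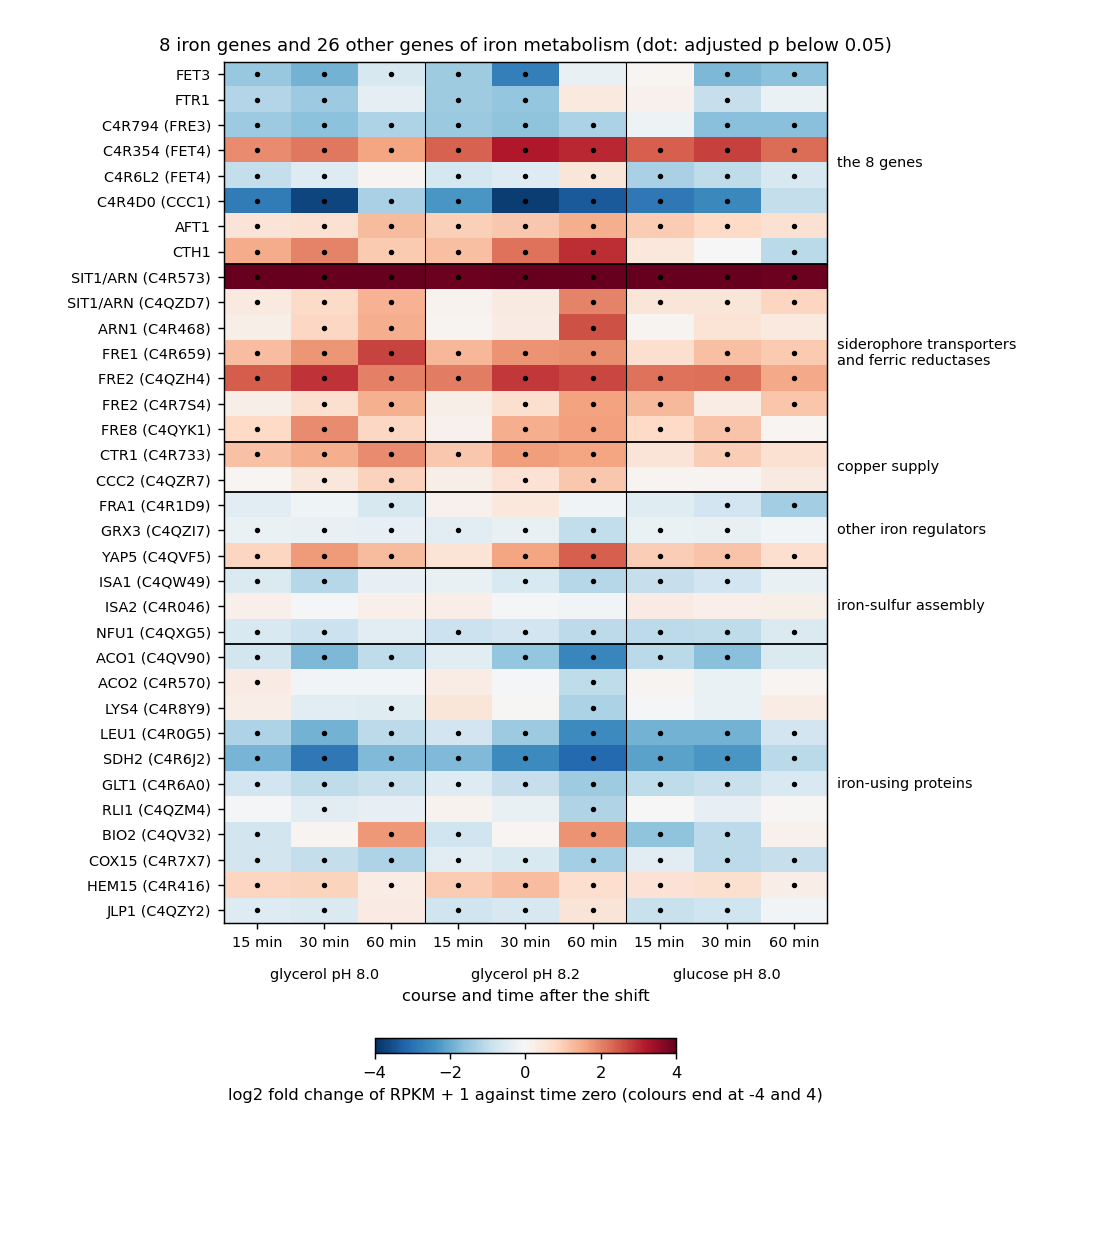
Log2 fold change of RPKM + 1 against time zero for the 8 genes and 26 other genes of iron metabolism in the 9 comparisons, red higher and blue lower than time zero, with a dot where the adjusted p was below 0.05. Colours end at -4 and 4, which C4R573 exceeds. The siderophore transporter and reductase rows are mostly red, while *FET3*, *FTR1*, C4R794 and C4R4D0 are blue on glycerol except *FTR1* at pH 8.2 after 60 min (0.39, not past the test).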

How the data were processed

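Poly-A RNA of 26 libraries was sequenced by the authors as single reads from non-directional libraries, mapped with Bowtie2 to the GS115 assembly and counted per gene model in SeqMonk (the Bowtie2 version is not given in the sources used here). RPKM values of the deposited table were computed by the authors for each library and are not logged. The log2 fold changes and p-values of the authors' own DESeq2 comparisons stand in another deposited table and were not used; only its gene names and descriptions were used, and with them the 8 genes were matched to their loci.

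RPKM times gene length came out whole within 0.05 read for every value, which gave the reads per library. limma 3.58.1 (R 4.3.3) fitted log2(RPKM + 1) with 1 mean per group over all libraries (12 groups, 14 residual degrees of freedom, trended empirical Bayes moderation) for 5034 genes that reached 1 RPKM in 2 or more libraries; 6 were left out. P-values were adjusted after Benjamini and Hochberg within each of 23 comparisons. Where 2-fold calls are named, p also had to lie under 0.01 before adjustment and the log2 change had to reach 1 in either direction. The fit was tested on simulated data. The study's methods call the replicates biological. P-values measure the spread between them and treat the times of 1 culture as independent.

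All 8 genes are named; of each other list, up to 3 genes with the largest change at pH 8.2 after 60 min among those past the test; and for each gene the closest 3 by correlation. *FRA1* was named after its values were seen. The 8 genes and the lists were chosen with earlier results of these data known. A keyword search over all gene products was not made, since the reference used here gives no products. Alternatives were other pseudocounts (0.1 and 5), other filters, median-ratio scaling, blocks, all 4 glycerol libraries as time zero, moderation without a trend, courses fitted alone, and each library left out.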

Additional observations from a re-analysis of the deposited data

Results flagged for a closer look

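In the group of 4 libraries, glycerol at pH 8.0 after 15 min, the C4R6L2 level of replicate 1 (5.38 RPKM) lay apart from the others (4.06 to 4.24), with a gap of 0.864 of the whole range; chance flags about 1 in 20 such groups, and 8 genes were looked at.

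The change from time zero differed between glucose and glycerol at pH 8.0, by the test of the difference itself, for *FET3*, *FTR1* and C4R794 at 15 min (1.58, 1.35 and 1.24 higher on glucose on the log2 scale), for *CTH1* at 30 min (-1.98), and for *FET3* and *CTH1* at 60 min (-1.0 and -2.12). Their causes were not tested.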

How the results depend on the processing

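Of the 61 changes from time zero past the test, 610 values under settings other than leaving out a library gave 605 calls in the same direction and 5 below the threshold, and 260 values without 1 library gave 241 and 19. Moving all-gene medians to near 0 (median-ratio scaling) brought the median at pH 8.2 after 60 min to 0.01, where it had been 0.13, and rises made up 58.7% of 2-fold calls instead of 68.8%; there *FET3* then passed the test (-0.41, adjusted p = 0.012) and C4R6L2 did not (0.38, adjusted p = 0.064).

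The number of genes past the test moved as follows. From 30 to 60 min at pH 8.2 it was 3 in place of 5 with median-ratio scaling and 3 with that course fitted alone. With courses alone it was 4 from 15 to 60 min at pH 8.2 (in place of 7), 4 from 30 to 60 min on glucose (in place of 2), and 5 and 2 for glucose minus glycerol at 15 and 30 min (in place of 3 and 1). For pH 8.2 minus pH 8.0, in place of 0, it was 3 and 3 at 30 and 60 min with all 4 glycerol libraries as time zero, 1 and 1 with a block by series of library codes, and 1 at 60 min with the replicate block. With a shared time zero, pH 8.2 minus pH 8.0 no longer takes the separate baselines into account. For the other cases the cause was not tested. Over all genes, glucose minus glycerol at 15, 30 and 60 min had 302, 65 and 297 past the test, 574, 146 and 478 with the replicate block, 521, 147 and 511 with courses alone and 144 at 15 min with all 4 glycerol libraries as time zero. For pH 8.2 minus pH 8.0, in place of 0, there were 131, 3 and 30 with the replicate block and 40, 372 and 353 with those 4 libraries.

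Without 1 library the counts ranged from 3 to 5 (30 to 60 min, glycerol pH 8.0; 6 with all libraries), 3 to 5 (the same at pH 8.2; 5), 0 to 1 (the same on glucose; 2), 0 to 1 and 0 to 3 (pH 8.2 minus pH 8.0 at 30 and 60 min; 0), 0 to 1 and 1 to 2 (glucose minus glycerol at 30 and 60 min; 1 and 2) and 2 to 4 (glucose against glycerol at time zero; 4). C4R4D0 turned direction at pH 8.2: -0.75 from 30 to 60 min without replicate 1 of 60 min and 1.60 without replicate 2 (0.43 with both), and from 15 to 60 min 0.14 without replicate 2 and -2.21 without replicate 1 (-1.04 with both).

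The labels do not say whether a replicate number marks 1 culture over its times. Over 5034 genes the deviations of same-numbered libraries had r of 0.11 to 0.35 on glucose, 0.066 to 0.70 at pH 8.2 and -0.04 to 0.63 on glycerol at pH 8.0, where pairing the 15 min libraries by library code gave 0.21 and 0.23 with 30 and 60 min and -0.0050 with time zero; not every value passed 0.1, and pairing was not assumed. The replicate block took *CTH1* from 30 to 60 min at pH 8.0 (adjusted p = 0.0501) and at pH 8.2 (0.065) and C4R4D0 from 15 to 60 min at pH 8.2 (0.054) out of the calls. It added *FET3* at pH 8.2 after 60 min (0.033), *FTR1* on glucose (0.018) and C4R794 on glycerol at pH 8.0 (0.049) from 30 to 60 min, and C4R354 for pH 8.2 minus pH 8.0 at 60 min (0.0497).

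Depth limits mainly C4R354 at time zero (50 to 81 reads); groups of 2 limit the rest.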
